A study of Canis lupus familiaris with 6 samples.

Results

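The genes described here are 10 members of the Notch pathway, taken by symbol from the gene table: the receptors NOTCH1, NOTCH2 and NOTCH3, the ligands JAG1, JAG2 and DLL1, the nuclear factors RBPJ and MAML1, and the target genes HES1 and HEY1. Of the 10, 9 have a row among the 35993 genes of the table, and all 9 were among the 14708 genes that passed the filter on low counts. HES1 matched no row by symbol or by gene ID and was not analysed here. RNA-Seq was performed on CPEK, a line of canine epidermal keratinocytes of progenitor type and wild-type genotype. The dCAMP group (3 libraries) received cold atmospheric microwave plasma, an ionized argon jet, directly for 30 s. The gas control (3 libraries) received the gas flow without plasma. In both groups the medium was changed after 15 min, and RNA was collected 24 h later. All libraries come from a single line, and since nothing in the labels says that libraries of a group came from separately treated cultures, the p-values measure only the spread between these libraries.

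Notch is a signalling system between neighbouring cells. A Jagged or Delta ligand on the surface of a cell engages a Notch receptor on the next cell, ADAM proteases and the γ-secretase complex then cut the receptor, and its freed intracellular domain moves to the nucleus. There it joins the DNA-binding protein RBPJ and a Mastermind coactivator such as MAML1, which switches on HES and HEY repressor genes. In the epidermis this pathway is known for driving basal keratinocytes out of the proliferating layer and into differentiation.

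The 6 libraries held 43084921 to 54082634 counts assigned to genes. The first principal component of log2-transformed levels held 89.2% of the variance and set gas libraries 1, 2 and 3 at scores of −67.9, −17.6 and 16.6, whereas dCAMP scores ran from 20.7 to 24.1. Gas library 3 therefore lay near the dCAMP libraries, gas library 1 lay far from them, and the results are given with and without these libraries. Gene length moved with this spread: for the longest genes (top 25% by length), the median deviation from their own mean was −0.12 in gas 1, −0.07 in gas 2 and 0.05 in gas 3, and 0.05 to 0.09 under dCAMP (log2 scale). A length correction, which takes out the trend of expression on gene length within every library, was run beside the main comparison. All 8 keratinocyte markers checked, KRT5, KRT14 and TP63 among them, were expressed, with a summed level of 49410 to 58888 CPM (counts scaled to the same library size) under gas and 46138 to 49112 under dCAMP. Markers of fibroblasts summed to at most 2.17 CPM, of melanocytes to at most 0.843 and of leukocytes to at most 5.89, and those of endothelium to 4.04 to 5.03 CPM under gas and 5.62 to 6.73 under dCAMP. PDGFRB, LUM, DCN, TYR, DCT, PECAM1, PTPRC and CD3E, which define these other cell types, were listed at 0 in every library. In each of these 4 lists 2 markers passed the filter. Of these, MLANA, CDH5, KDR and ITGAM were higher in all 3 dCAMP libraries than in any gas library (19% of all genes). COL1A1 was lower in all 3 (20.9% of all genes). Each had an unadjusted p under 0.05 in edgeR (20.7% of all genes) and an edgeR adjusted p of 0.221 to 0.239. Among the keratinocyte markers, KRT5 and KRT14 were lower and ITGA6 higher in the same way, also with an unadjusted p under 0.05. MLANA, a melanocyte marker, had 4, 0 and 0 counts under gas and 13, 16 and 11 under dCAMP. The log2FC (log2 fold change, dCAMP over gas) was 0.69 for CDH5 and 0.45 for KDR, both endothelial. It was 0.38 for the leukocyte marker ITGAM and −0.68 for the fibroblast marker COL1A1. The other tested marker of a list went the opposite way for fibroblasts (COL1A2, 0.54), melanocytes (PMEL, −0.62) and leukocytes (CD68, −0.16), each with overlapping groups. The endothelial marker TEK, under the filter, had 6, 0 and 4 counts under gas and 0 under dCAMP. The part of such cells in the results was not tested. In RNA from whole cultures, fewer cells of a type and less RNA per cell cannot be told apart.

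Per length, NOTCH1 was the most abundant of the 9 genes in every library. Its level was 64.7 ± 7.39 FPKM (fragments scaled to transcript length and library size; SD, n = 3) under gas and 53.6 ± 2.75 (SD, n = 3) after dCAMP. The Jagged ligands followed, with JAG2 at 37.0 ± 5.13 FPKM and JAG1 at 31.8 ± 2.33 under gas, where their libraries overlapped. NOTCH3 (13.5 ± 2.28 FPKM) and NOTCH2 (11.9 ± 0.624) also overlapped under gas. MAML1 stood below them at 7.08 ± 0.608 FPKM and RBPJ at 3.14 ± 1.51. DLL1 and HEY1 closed the order at 0.399 ± 0.0321 and 0.375 ± 0.129 FPKM, and their libraries overlapped.

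In dCAMP-treated cells the order of the means within the pair of Jagged ligands and within the lower pair of receptors was the other way round. Gas 3 already had NOTCH2 above NOTCH3 (12.4 and 11.4 FPKM), and JAG2 was near JAG1 there (31.6 and 31.0 FPKM). These levels are without the length correction. Under dCAMP, JAG1 stood at 34.3 ± 1.99 FPKM and JAG2 at 29.2 ± 0.303, with no overlap between the libraries of the 2 genes. NOTCH2 stood at 13.5 ± 0.0422 FPKM and NOTCH3 at 11.9 ± 0.793, again with no overlap. MAML1 (6.32 ± 0.172 FPKM), RBPJ (5.02 ± 0.222), DLL1 (0.398 ± 0.0437) and HEY1 (0.352 ± 0.0937) kept their order, and DLL1 and HEY1 still overlapped. The cells thus contained mostly NOTCH1 among the receptors and the Jagged type among the ligands, in both groups.

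**Figure D1:**
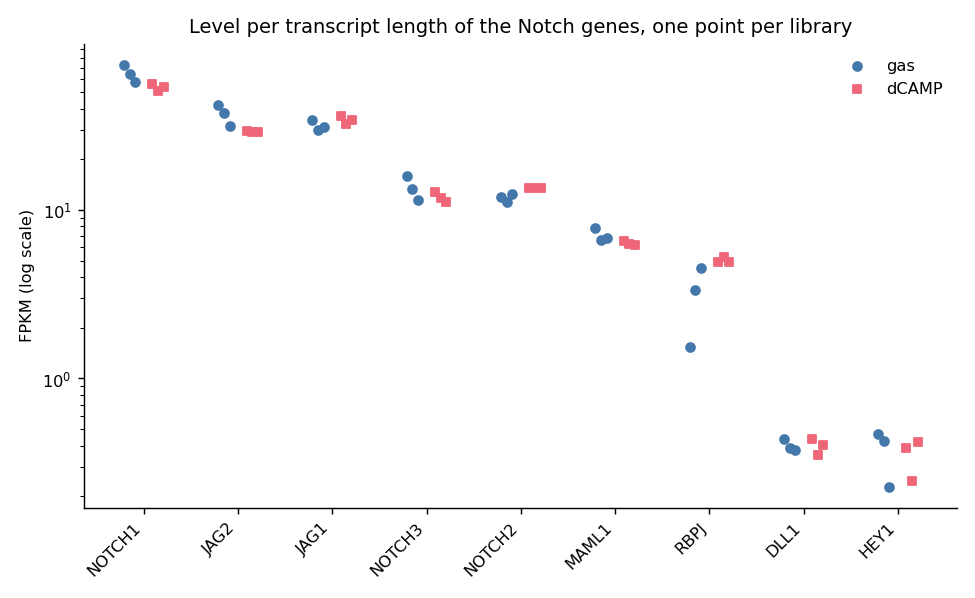
FPKM of each Notch gene on a log axis, with 1 point per library (circles, 3 gas; squares, 3 dCAMP) and genes ordered by their mean under gas. The levels run from 50.8 to 72.5 FPKM for NOTCH1 down to under 0.5 FPKM for DLL1 and HEY1, and RBPJ has the widest spread among the gas libraries, 1.53 to 4.52 FPKM.

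No member passed the adjusted test with all 6 libraries. In edgeR's quasi-likelihood test, 0 of the 9 genes had a Benjamini-Hochberg adjusted p under 0.05, a threshold that 0% of the genes tested passed. Without adjustment, 2 of the 9, NOTCH1 and JAG2, had a p under 0.05, against 20.7% of all genes tested, and both were lower after dCAMP. None of the 9 combined such a p with a 2-fold change, which 1.09% of all genes did. The log2FC had a median of −0.07 over the 9 genes, with 3 genes higher and 6 lower, beside a median of 0.03 over all genes. In 5 of the 9 genes the CPM values of the groups did not overlap (39.9% of all genes). NOTCH1, JAG2 and MAML1 were lower in all 3 dCAMP libraries than in any gas library (20.9% of all genes), and NOTCH2 and RBPJ were higher in all 3 (19% of all genes), though the fitted direction of NOTCH2 turned with the length correction.

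The counts above depended on the libraries used. Without gas library 3, the adjusted p was under 0.05 for 2 genes, again NOTCH1 and JAG2, in a fit where 33.1% of all genes passed. In that fit, 5 of the 9 genes had an unadjusted p under 0.05 (49.2% of all genes), and 1 gene, RBPJ, also had a 2-fold change (10.2% of all genes). The number with an unadjusted p under 0.05 was 2 without gas 1 (20.6% of all genes) and 0 without gas 2 (8.25%). It was 1 without dCAMP 1 (8.23%), 0 without dCAMP 2 (9.61%) and 0 without dCAMP 3 (6.86%). With limma's voom and sample quality weights, 6 of the 9 genes had an adjusted p under 0.05, and so did 60.8% of all genes (64.9% without adjustment). After the length correction, 3 of the 9 had an unadjusted p under 0.05 (22.6% of all genes), and 4 did with the correction and the replicate number as a factor (20.6%). The replicate number alone left 2 (18.9% of all genes). After the length correction the groups did not overlap in 3 of the 9 genes, against 38.7% of all genes.

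**Figure D2:**
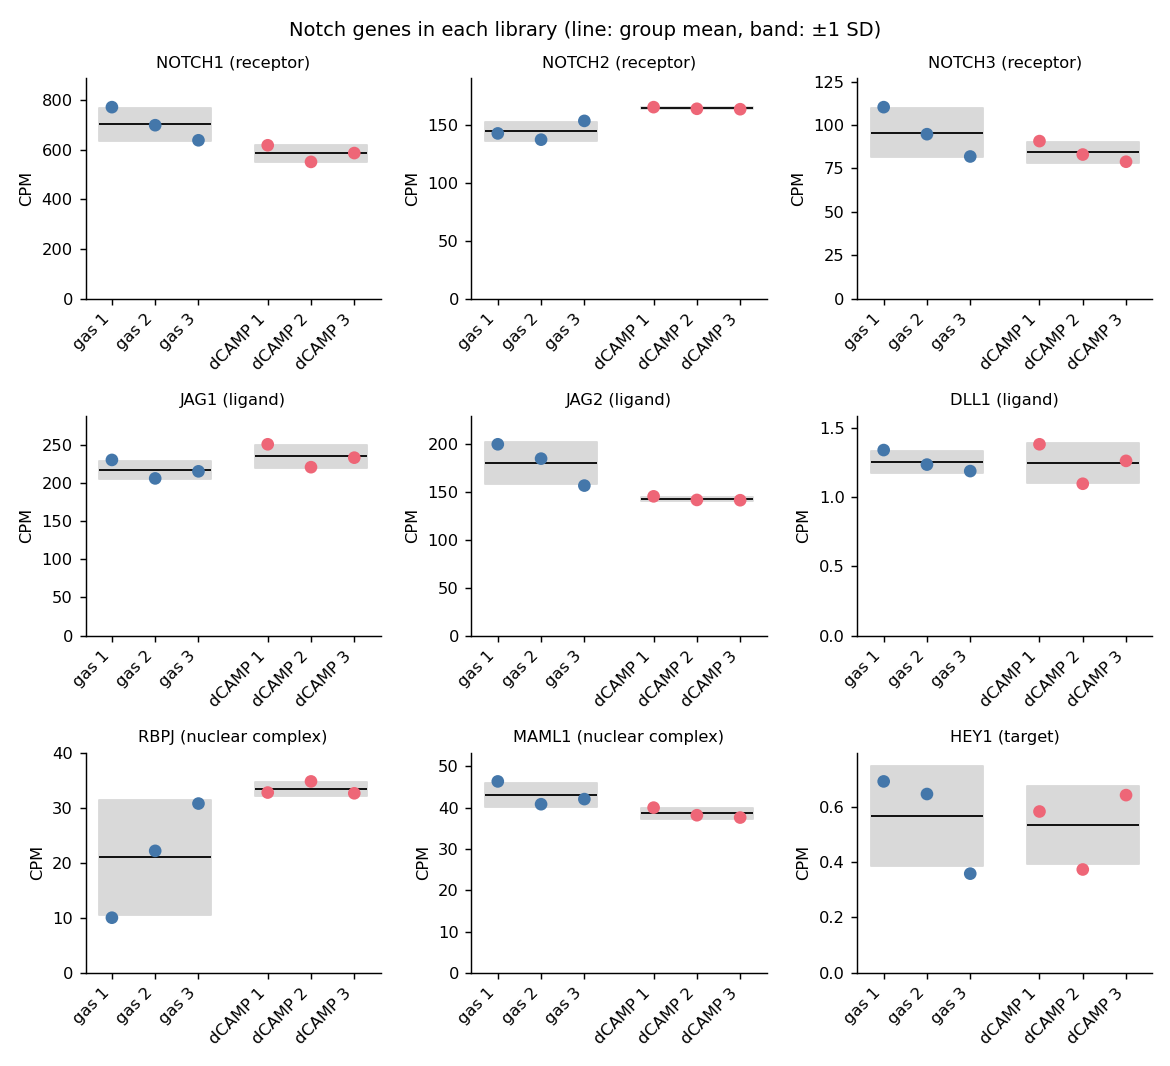
CPM of the 9 Notch genes in each library, 1 panel per gene with its own axis from 0 (blue, gas 1 to 3; red, dCAMP 1 to 3; line, group mean; grey band, ±1 SD, n = 3). NOTCH1, JAG2 and MAML1 are lower and NOTCH2 (before the length correction) and RBPJ higher in all 3 dCAMP libraries than in any gas library, and the other 4 genes overlap.

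NOTCH1 (gene ID 480676; chromosome 9, 48975972 to 49018985 of CanFam3.1) encodes the receptor best known for epidermal commitment. It had 770.6, 697.9 and 637.2 CPM under gas (libraries 1, 2 and 3), and 617.1, 550.2 and 585.7 CPM under dCAMP. Every dCAMP library lay below every gas library, with gas 3 nearest to them. For this gene, edgeR gave a log2FC of −0.26 (standard error 0.10, 95% confidence interval −0.50 to −0.03), a difference of −16.7%, with an unadjusted p of 0.0306 and an edgeR adjusted p = 0.226. It was −0.21 without gas 1, −0.38 without gas 3 (edgeR adjusted p = 0.0276) and −0.57 after the length correction.

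NOTCH2 (gene ID 483148; chromosome 17, 56854825 to 57020157) encodes a receptor of the same structure. Its CPM values were 142.3, 136.9 and 153.1 under gas (libraries 1, 2 and 3) and 165.0, 163.6 and 163.2 under dCAMP. The dCAMP libraries were almost identical and all lay above the gas libraries. The fitted log2FC was 0.19 (standard error 0.08, 95% interval −0.00 to 0.37, edgeR adjusted p = 0.243), but −0.10 after the length correction. Its direction thus depended on that correction. Of its 4 annotated transcripts, the 10696-base form held at least 99.6% of the gene's counts in every library, and the next, of 7223 bases, held 0 to 21 counts. The table also lists a gene described as NOTCH2-like, LOC102155067, with 31 to 56 counts, and how reads shared by near-identical genes were counted was not given in the sources used here.

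NOTCH3 (gene ID 610439; chromosome 20, 46946654 to 46978821) is the third receptor measured. It had 110.3, 94.7 and 81.9 CPM under gas and 90.7, 83.0 and 78.9 CPM under dCAMP. Here gas 3 lay among the dCAMP libraries, so the groups overlapped. Its log2FC was −0.18 (standard error 0.13, 95% interval −0.50 to 0.13; edgeR adjusted p = 0.375), −0.09 without gas 1, −0.33 without gas 3 and −0.44 after the length correction. NOTCH4, the remaining receptor gene of the pathway list, was listed at 0 in all 6 libraries, which allows a level of up to 0.0555 to 0.0696 CPM (3 counts per library, counting error only).

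JAG2 (gene ID 490882; chromosome 8, 72535539 to 72553531) had the smallest p of the 9 genes. This Jagged-type ligand was measured at 199.8, 184.8 and 156.7 CPM under gas (libraries 1, 2 and 3), and at 145.5, 141.7 and 141.4 CPM under dCAMP. The dCAMP libraries formed a narrow band below all gas libraries. For this gene, edgeR gave a log2FC of −0.34 (standard error 0.11, 95% interval −0.59 to −0.08), a difference of −20.8%, with an unadjusted p of 0.0184 and an edgeR adjusted p = 0.221. It was −0.28 without gas 1, −0.48 without gas 3 (edgeR adjusted p = 0.0206) and −0.52 after the length correction.

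JAG1 (gene ID 485769; chromosome 24, 11656926 to 11693146), the other Jagged ligand, differed less between the groups than JAG2. Its CPM values were 229.8, 205.7 and 214.9 under gas and 250.3, 220.3 and 232.8 under dCAMP, and the groups overlapped. The fitted log2FC was 0.11 (standard error 0.09, 95% interval −0.10 to 0.32; edgeR adjusted p = 0.399), and −0.12 after the length correction. Its direction thus also depended on that correction.

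DLL1 (gene ID 100688936; chromosome 12, 72265078 to 72272347), the Delta-type ligand, was expressed at a low level. It had 62, 65 and 63 counts under gas (libraries 1, 2 and 3), and 64, 47 and 57 under dCAMP. Its log2FC was −0.01 (standard error 0.17, 95% interval −0.42 to 0.40; edgeR adjusted p = 0.98). Among the other ligand genes, DLL3 had 0 to 10 counts and DLL4 0 to 19 counts per library, both under the filter.

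The Jagged ligands differed in direction before the length correction but not after it, as did NOTCH1 and NOTCH2. The ratio of each pair was taken within a library, where the scaling between libraries drops out. A trend with gene length need not drop out, so the ratios are also given after the length correction. Both ratios were chosen after the values were seen, out of 36 pairs of members, of which 14 had ratios that did not overlap between the groups, beside 34.2% of all pairs of tested genes. They are therefore given as a description, with no test. JAG2 counts were 0.869, 0.899 and 0.729 times those of JAG1 under gas (libraries 1, 2 and 3), and 0.581, 0.643 and 0.608 times under dCAMP. NOTCH1 counts were 5.41, 5.10 and 4.16 times those of NOTCH2 under gas, and 3.74, 3.36 and 3.59 times under dCAMP. Neither ratio overlapped between the groups. The JAG2 to JAG1 ratio was 0.832 ± 0.0907 (SD, n = 3) under gas and 0.611 ± 0.0311 (SD, n = 3) after dCAMP, a log2 difference of −0.44. The NOTCH1 to NOTCH2 ratio was 4.89 ± 0.651 (SD, n = 3) and 3.56 ± 0.190 (SD, n = 3), a log2 difference of −0.45. The log2 differences were −0.39 and −0.44 after the length correction, and the groups still did not overlap. In the fits without 1 library they were −0.53 to −0.38 for JAG2 to JAG1 and −0.56 to −0.37 for NOTCH1 to NOTCH2.

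**Figure D3:**
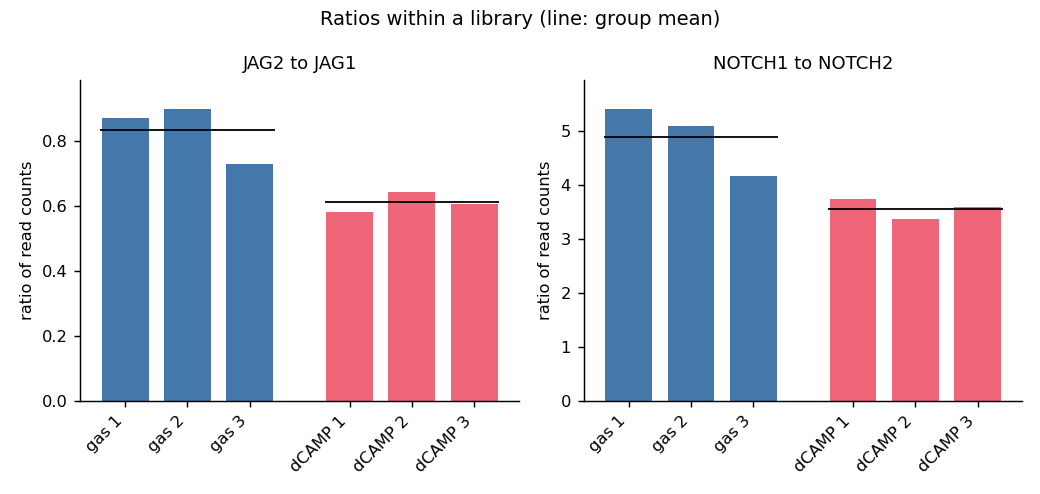
Ratio of read counts within each library for JAG2 to JAG1 (left) and NOTCH1 to NOTCH2 (right), with bars from 0 (blue, gas; red, dCAMP) and a line at each group mean. All 3 dCAMP bars are below all 3 gas bars in both panels, and gas 3 is the lowest gas bar at 0.729 and 4.16.

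RBPJ (gene ID 479122; chromosome 3, 84060417 to 84286008), the DNA-binding partner of every Notch receptor, had the largest fitted difference and the widest spread of the 9 genes. It had 465, 1170 and 1636 counts under gas (libraries 1, 2 and 3), or 10.0, 22.2 and 30.8 CPM. The dCAMP libraries had 1522, 1495 and 1478 counts, or 32.8, 34.9 and 32.7 CPM. The dCAMP libraries agreed closely and all lay above the gas libraries, while the gas libraries ranged widely, with gas 1 the lowest and gas 3 close to the dCAMP libraries. For this gene, edgeR gave a log2FC of 0.67 (standard error 0.37, 95% interval −0.23 to 1.57; edgeR adjusted p = 0.3). It was 0.32 without gas 1, 1.01 without gas 3 (edgeR adjusted p = 0.0604) and 0.49 after the length correction.

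RBPJ was also the member whose counts were divided among several transcripts. The 5936-base form took 212, 27 and 1176 counts under gas (libraries 1, 2 and 3), and 909, 673 and 1006 under dCAMP. The 5747-base form took 188, 1126 and 331 counts under gas and 613, 799 and 462 under dCAMP. The share of the 5936-base form was therefore 45.6%, 2.31% and 71.9% under gas and 59.7%, 45% and 68.1% under dCAMP, and the groups overlapped. These forms share the genomic coordinate 84060417 at one end and have 84164041 and 84164035 at the other, and how the reads were divided between them was not tested. A 6054-base form had 65, 17 and 129 counts under gas and 0, 23 and 10 under dCAMP. The other 2 of the 5 transcripts were listed at 0. The locus overlaps LOC111095310, with 5 to 17 counts, and 2 further genes listed at 0.

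**Figure D4:**
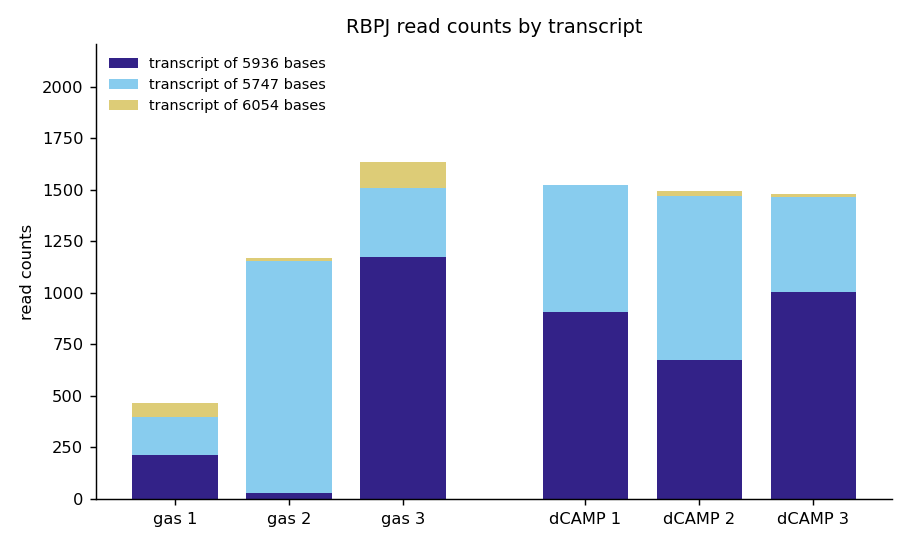
Read counts of RBPJ in each library, stacked by the 3 transcripts that had counts. The totals run from 465 in gas 1 to 1636 in gas 3 and from 1478 to 1522 under dCAMP, and in gas 2 nearly all counts (1126 of 1170) fall on the 5747-base form.

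MAML1 (gene ID 481457; chromosome 11, 1915622 to 1927598), the coactivator that binds the complex of RBPJ and the Notch intracellular domain, differed little. It had 46.4, 40.9 and 42.1 CPM under gas (libraries 1, 2 and 3) and 40.0, 38.2 and 37.6 CPM under dCAMP, which lay just below the gas libraries. The fitted log2FC was −0.16 (standard error 0.10, 95% interval −0.39 to 0.07; edgeR adjusted p = 0.322), and −0.38 after the length correction.

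HEY1 (gene ID 403420; chromosome 29, 27185191 to 27188121), a repressor gene switched on by Notch, was near the lower limit of what these libraries measure well. It had 32, 34 and 19 counts under gas (libraries 1, 2 and 3) and 27, 16 and 29 under dCAMP, and the groups overlapped. Its log2FC was −0.07 (standard error 0.34, 95% interval −0.88 to 0.74; edgeR adjusted p = 0.891). It was 0.06 without gas 1 and −0.35 without gas 3, and no difference was detected.

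A further 60 genes of the pathway were followed as a list of processing enzymes, cofactors, targets and regulators. All 60 have a row in the table, 1 of them (TLE4) found by gene ID, and 50 were tested. With an unadjusted p under 0.05, 4 were higher and 8 lower after dCAMP, next to 1001 higher and 2039 lower of the 14708 genes tested. After the length correction the split was 2 higher and 17 lower, next to 683 and 2640 of all genes. None of the 50 had an edgeR adjusted p under 0.05 with all 6 libraries. Without gas 3, 7 were higher and 12 lower at that threshold, which 33.1% of all genes passed in that fit (2249 higher and 2704 lower). The median log2FC was −0.08, and 25 of the 50 had groups that did not overlap, beside 39.9% of all genes.

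The class of receptor cleavage held 9 tested genes, of which 4 were higher and 5 lower after dCAMP. NCSTN and APH1A, which encode subunits of the γ-secretase complex, had log2FCs of −0.26 (95% interval −0.53 to 0.02) and −0.17 (−0.38 to 0.03). For APH1B, another subunit gene, it was 0.28 (−0.24 to 0.80). The class of glycosyltransferases that act on Notch held 5 tested genes, of which 2, the Fringe genes RFNG and LFNG, had an unadjusted p under 0.05 (20.7% of all genes). RFNG had 233.9, 200.2 and 185.0 CPM under gas and 157.5, 164.7 and 164.0 under dCAMP, a log2FC of −0.35 (standard error 0.11). LFNG had 69.6 ± 7.58 CPM (SD, n = 3) under gas and 56.4 ± 5.74 (SD, n = 3) after dCAMP, a log2FC of −0.30 (standard error 0.12).

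KAT2B, the acetyltransferase PCAF that works with the Notch transcription complex, differed most among the 50 genes. It had 4.67, 4.71 and 7.48 CPM under gas (libraries 1, 2 and 3) and 10.9, 10.5 and 12.5 CPM under dCAMP. All dCAMP libraries lay above all gas libraries, and the log2FC was 1 (standard error 0.22, 95% interval 0.48 to 1.52; unadjusted p of 0.00302, edgeR adjusted p = 0.221). For this gene, edgeR gave a log2FC of 0.87 without gas 1 (edgeR adjusted p = 0.196) and 0.83 after the length correction. Without gas 3 it was 1.22 (edgeR adjusted p = 0.0203), in a fit where 33.1% of all genes had an adjusted p under 0.05. In DESeq2 its adjusted p = 0.0171, a threshold of 0.05 that 1.25% of the genes with an adjusted p passed there. The other 5 coactivators tested had an unadjusted p over 0.05, EP300 among them at 108.1 ± 4.27 and 109.1 ± 4.86 CPM (SD, n = 3 each), a log2FC of 0.01, or −0.27 after the length correction.

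Of the 12 corepressor genes, CTBP1 and TLE2 had an unadjusted p under 0.05, both lower, a smaller share than the 20.7% of all genes. CTBP1 had 93.0, 92.8 and 75.1 CPM under gas and 63.6, 67.1 and 62.2 under dCAMP, a log2FC of −0.43 (standard error 0.11). TLE2, of the Groucho family that HES proteins recruit, had a log2FC of −0.30 (standard error 0.11). DLK2, a membrane protein related to Delta and the 1 tested gene of the 6 further receptors and ligands, had 9.07 ± 1.53 CPM (SD, n = 3) under gas and 6.44 ± 0.592 (SD, n = 3) after dCAMP, a log2FC of −0.49 (standard error 0.16).

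Of the 12 tested regulators of Notch trafficking and turnover, 8 were higher and 4 lower after dCAMP. With an unadjusted p under 0.05 in edgeR (20.7% of all genes), 2 were higher and 3 lower, and these are given here. ITCH, a ubiquitin ligase that acts on Notch, had 34.0, 52.3 and 76.3 CPM under gas and 86.1, 91.9 and 86.2 under dCAMP, a log2FC of 0.70 (standard error 0.28), which was 0.44 without gas 1 and 0.98 without gas 3. FBXW7, which targets the Notch intracellular domain for degradation, had a log2FC of 0.58 (standard error 0.24), and 0.34 without gas 1. The ubiquitin ligase genes DTX2 and MIB2 had log2FCs of −0.30 (standard error 0.12) and −0.36 (standard error 0.14). NUMBL, an adaptor of the Numb family, had 17.9 ± 1.88 CPM (SD, n = 3) under gas and 13.1 ± 1.30 (SD, n = 3) after dCAMP, a log2FC of −0.45 (standard error 0.13). For all 5 of these regulators the edgeR adjusted p lay between 0.221 and 0.24.

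**Figure D5:**
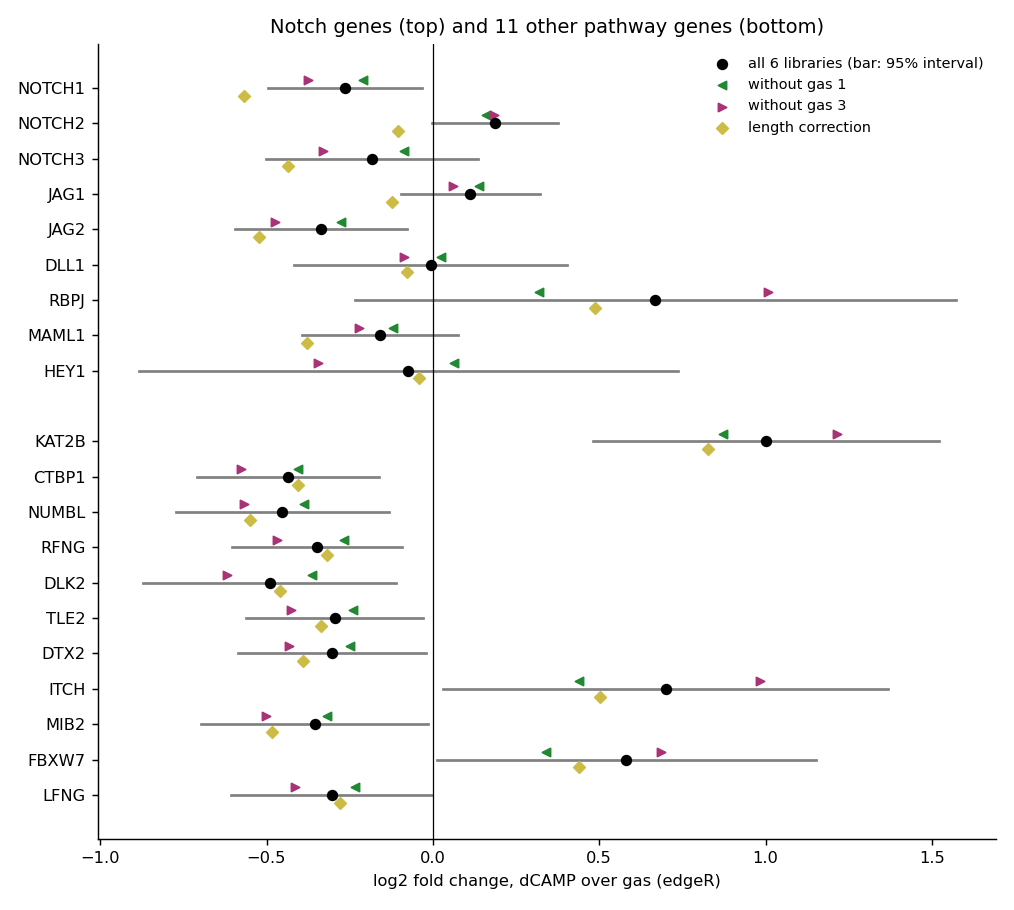
Log2FC, dCAMP over gas, for the 9 Notch genes (top) and 11 of the other pathway genes with the smallest p (bottom), with 95% intervals from all 6 libraries (black) and the values without gas 1, without gas 3 and after the length correction (coloured). The yellow diamonds of NOTCH2 and JAG1 lie left of 0 and their black points right of it, and RBPJ ranges from 0.32 to 1.01.

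None of the 5 tested target genes in the list had an unadjusted p under 0.05 in edgeR (20.7% of all genes). None had groups that did not overlap (39.9% of all genes). NRARP, a feedback inhibitor induced by Notch, had 43.0 ± 4.64 CPM (SD, n = 3) under gas and 41.9 ± 0.516 (SD, n = 3) after dCAMP, a log2FC of −0.04 with a 95% interval of −0.30 to 0.23. HES4 had a log2FC of −0.20 (95% interval −0.53 to 0.13) and HES2 of 0.03 (−0.46 to 0.52). HES5 and HES7 were listed at 0 in all libraries, and HEY2 had 4 counts in gas 1 and 0 in the others. Of 6 keratinocyte genes linked to Notch in the skin, KRT1 was listed at 0 in every library. Of the other 5, 0 had an unadjusted p under 0.05 in edgeR (20.7% of all genes). IVL, a cornified envelope gene, had 1439, 916.8 and 636.6 CPM under gas (libraries 1, 2 and 3) and 1206, 855.5 and 1082 under dCAMP, so the gas libraries spanned the dCAMP libraries. CDKN1A, the cell cycle inhibitor p21, had 691.8 ± 101.6 CPM under gas and 735.4 ± 47.6 after dCAMP (SD, n = 3 each), a log2FC of 0.09 (standard error 0.12). TP63, the regulator of basal keratinocytes, had a log2FC of 0.18 (standard error 0.14), and 0.02 after the length correction. It was 0.06 without gas 1 (edgeR adjusted p = 0.737). Without gas 3 it was 0.29 (edgeR adjusted p = 0.0395), in a fit where 33.1% of all genes had an adjusted p under 0.05.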

How the data were processed

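RNA was sequenced for 6 CPEK libraries after a TruSeq stranded mRNA library preparation. The authors checked reads with FastQC 0.11.7, trimmed them with Trimmomatic 0.38, aligned them to CanFam3.1 with HISAT2 2.1.0 and assembled and quantified them with StringTie 2.1.3b. The annotation release and the counting of overlapping genes are not given in the sources used here. The deposited gene table holds raw read counts and FPKM per gene and library, and a second deposited table holds read counts for 87504 transcripts. The TPM columns were not used.

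Counts were tested in R 4.3.3 with edgeR 4.0.16 (TMM factors, filterByExpr, prior count 2, quasi-likelihood test, 14708 genes), with Benjamini-Hochberg adjustment over all of them. CPM used TMM-scaled totals. Length was the one implied by counts and FPKM, and its trend was a lowess curve with a span of 0.3. Alternatives were DESeq2 1.42.0, limma 3.58.1 (voom with sample weights, and log2 of FPKM plus 1 or 0.1), RLE and upper-quartile factors, no filter, the replicate number as a block, and leaving out each library. The script was checked on simulated counts. Coordinates are those of the deposited tables. Library totals were 43084921 to 54082634 counts, and intervals assume that these libraries represent their group.

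All members were named, with the 12 pathway genes of smallest p (1 of them is not reported here), any pathway gene that changed 2-fold at an unadjusted p under 0.05, and 6 keratinocyte genes. Up to 2 transcripts per member were to be named. The third RBPJ transcript and the pathway genes NCSTN, APH1A, APH1B, EP300, NRARP and HES4 were added after their values were seen. The members and lists were chosen with earlier results of these data known. A search for genes similar to HES1 could not be run.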

Additional observations from a re-analysis of the deposited data

How the results depend on the processing

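The fits with DESeq2, RLE factors, no filter and log2 FPKM with either pseudocount left the number of Notch genes with an adjusted p under 0.05 at 0. Upper-quartile factors moved the median log2 fold change of the Notch genes to −0.17. With voom and sample weights, 6 Notch genes had an adjusted p under 0.05 and 6 an unadjusted one, as did 37 of the 50 other pathway genes (unadjusted), beside 60.8% (adjusted) and 64.9% (unadjusted) of all genes, and DLL1 was at 0.036. The length correction left 3 Notch genes whose groups did not overlap (38.7% of all genes), gave 19 other pathway genes with an unadjusted p under 0.05 (22.6% of all genes), and placed NOTCH2 at −0.10 and JAG1 at −0.12. Leaving out 1 library at a time gave 0 to 2 Notch genes with an adjusted p under 0.05. It gave 0 to 5 with an unadjusted p under 0.05 and 0 to 1 with a 2-fold change as well. The highest of these counts came without gas 3, where 33.1%, 49.2% and 10.2% of all genes passed. The median of the Notch genes lay between −0.22 (without gas 3) and 0.045 (without dCAMP 2). DLL1 lay between −0.088 and 0.045 and HEY1 between −0.35 and 0.079. In these fits, 3 to 33 other pathway genes had an unadjusted p under 0.05 (6.86% to 49.2% of all genes). The cause of these shifts was not tested. Over all alternatives the adjusted p ranged from 0.0018 to 0.502 for NOTCH1, from 0.000257 to 0.502 for JAG2 and from 0.00113 to 0.502 for RBPJ.

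The labels number the libraries 1 to 3 in both groups. Deviations from the group means correlated at 0.29, 0.08 and 0.12 between gas and dCAMP libraries of the same number. Between gas and dCAMP libraries of different numbers the correlations ran from −0.31 to 0.18. With only 3 libraries a group, whose deviations are tied to each other, these values cannot settle whether the numbers pair the libraries. The main fit was therefore left unpaired, and a fit with the replicate block is given beside it. With the replicate block, 2 Notch genes and 9 other pathway genes had an unadjusted p under 0.05 (18.9% of all genes) and 0 Notch genes an adjusted one, and no call of a Notch gene differed. The replicate block together with the length correction gave 4 Notch genes with an unadjusted p under 0.05 and 3 whose groups did not overlap, with NOTCH2 at −0.10 and JAG1 at −0.11. There were 3 libraries a group, and the gas libraries differed widely. DLL1 and HEY1 had the lowest counts of the Notch genes, 47 to 65 and 16 to 34 per library. What limits the precision for each gene was not tested.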

Other observations

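Several pathway genes outside those named above had the pattern of RBPJ. Gas library 1 was the lowest, gas library 2 lay between, and gas library 3 was close to the dCAMP libraries. They were chosen after their values were seen. ADAM10, the protease that makes the first ligand-induced cut in Notch, had 78.1, 127 and 212 CPM in gas libraries 1, 2 and 3 and 216, 230 and 216 CPM in the dCAMP libraries. Its log2 fold change was 0.67 (edgeR adjusted p = 0.276) and 0.37 without gas 1 (edgeR adjusted p = 0.282). It was 1.06 without gas 3 (edgeR adjusted p = 0.023), in a fit where 33.1% of all genes had an adjusted p under 0.05. MIB1, a ubiquitin ligase needed for ligands to signal, had 26.1, 46.1 and 96.6 CPM in the gas libraries and 94.0, 103 and 102 CPM in the dCAMP libraries. Its log2 fold change was 0.82 (edgeR adjusted p = 0.291) and 0.47 without gas 1 (edgeR adjusted p = 0.315). It was 1.42 in the same fit without gas 3 (edgeR adjusted p = 0.0216). POGLUT1, which adds O-glucose to Notch receptors, had 19.5, 46.7 and 66.5 CPM in the gas libraries and 67.2, 71.9 and 69.1 CPM in the dCAMP libraries. HDAC2, a histone deacetylase of corepressor complexes, had 51.5, 111 and 147 CPM in the gas libraries and 144, 144 and 149 CPM in the dCAMP libraries. For POGLUT1 and HDAC2 the log2 fold changes were 0.65 and 0.50, and 0.28 and 0.16 without gas 1.

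Gas library 3 was nearer to the dCAMP mean than to gas library 1 in 8 of the 9 Notch genes, in 43 of the 50 other pathway genes (86%) and in 12010 of all 14708 genes tested (81.7%). What set the gas libraries apart from each other was not tested.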
